A study of Mus musculus with 8 samples.

Results

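The 47 genes described here code for proteins that copy DNA (22 genes) or that carry a cell through mitosis (25 genes). They were listed by symbol for their known function, not by a measured level, though with earlier results of these data known. All 47 were found among the 33696 gene entries of the deposited count matrix. Single-cell RNA-seq had been made from colon and cecum epithelium of mice that were germ-free (GF), treated with antibiotics (Abx) or controls (Ctrl), per the labels. Cells were pooled by condition, sorted as EPCAM-positive and CD45-negative, and loaded with CD44-positive and CD44-negative cells in equal parts, and the libraries were made with a split-pool barcoding kit (Parse Biosciences Evercode WT). The deposited cell table names the loaded samples, and 6 groups of 4 numbered samples were used: Colon GF, Colon Abx_14D, Cecum GF, Cecum Abx_14D, Cecum Abx_4D and Cecum Ctrl. No source used here gives the antibiotics, what 4D and 14D stand for, or the strain, sex and age of the mice. CD44 is a surface protein that the protocol uses to mark proliferative epithelial cells, so the sort shaped the balance of dividing and differentiated cells in every group. Whether samples with different numbers came from different mice is unstated, so the p-values measure the spread between these samples only, which may be technical.

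The epithelium of the large intestine renews itself from crypts, where stem cells and their transit-amplifying daughters divide before the cells mature and stop dividing. Before S phase the MCM helicase is loaded onto replication origins by Cdc6 and Cdt1; E-type cyclins and the factors Cdc45 and GINS start the helicase, the clamp PCNA holds the polymerases on the template, and ribonucleotide reductase (Rrm1 and Rrm2) and thymidylate synthase (Tyms) supply nucleotides. In G2 and mitosis, Cdk1 with cyclins A and B, the kinases Plk1, Aurka and Aurkb and a set of kinesins and kinetochore proteins build the spindle and separate the chromosomes, and the ubiquitin ligase activated by Cdc20, with the enzyme Ube2c, then removes the cyclins. Many S-phase genes are known targets of E2F factors, and many mitotic genes of complexes that read a cell cycle homology region (CHR) beside CCAAT boxes bound by NF-Y.

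Promoters of 7 genes are printed because replication and mitosis genes hold the CHR and E2F motifs in different shares. The sequences are the 150 bases before the RefSeq transcript start (build GRCm38.p6; the deposited gene table names GRCm39), in the direction of transcription, with every motif match on either strand in capitals. The motifs were TTTGAA for the CHR (TTCAAA on the other strand), CCAAT for NF-Y (ATTGG on the other strand) and TTTCGCGC, TTTGGCGC, TTTCCCGC or TTTGGCGG for E2F, whose matches may overlap one another. Ube2c and Top2a stand for the mitosis genes, Cdk1 is the one mitosis gene that also holds an E2F word, Mcm6, Hells and Dtl stand for the replication genes, and Rrm2 is the gene with the largest difference between colon and cecum below.
Cdk1: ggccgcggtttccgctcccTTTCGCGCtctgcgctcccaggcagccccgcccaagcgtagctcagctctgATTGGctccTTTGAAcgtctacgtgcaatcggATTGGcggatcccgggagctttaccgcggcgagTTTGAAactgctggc
Ube2c: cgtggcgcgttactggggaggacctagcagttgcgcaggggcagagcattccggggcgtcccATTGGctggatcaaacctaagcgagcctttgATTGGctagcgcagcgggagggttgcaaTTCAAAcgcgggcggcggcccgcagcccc
Top2a: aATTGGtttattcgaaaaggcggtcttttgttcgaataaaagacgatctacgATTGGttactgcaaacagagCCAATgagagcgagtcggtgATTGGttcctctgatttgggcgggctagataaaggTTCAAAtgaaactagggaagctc
Mcm6: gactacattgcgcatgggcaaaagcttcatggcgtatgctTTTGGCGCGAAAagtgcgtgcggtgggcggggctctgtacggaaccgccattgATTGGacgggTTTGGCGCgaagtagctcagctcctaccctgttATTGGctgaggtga
Hells: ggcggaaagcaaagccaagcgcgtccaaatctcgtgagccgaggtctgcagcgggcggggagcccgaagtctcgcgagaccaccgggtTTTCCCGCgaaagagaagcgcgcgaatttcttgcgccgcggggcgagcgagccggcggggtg
Dtl: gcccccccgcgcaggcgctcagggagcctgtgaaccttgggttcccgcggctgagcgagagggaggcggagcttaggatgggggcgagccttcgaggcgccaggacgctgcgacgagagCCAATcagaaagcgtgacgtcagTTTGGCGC
Rrm2: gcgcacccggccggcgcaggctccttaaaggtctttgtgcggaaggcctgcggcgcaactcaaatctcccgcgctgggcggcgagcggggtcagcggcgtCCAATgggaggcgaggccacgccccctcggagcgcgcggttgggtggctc
These stretches lie at chr10:69352913-69353062 (minus strand) for Cdk1, chr2:164769779-164769928 (plus strand) for Ube2c, chr11:99024190-99024339 (minus strand) for Top2a, chr1:128359706-128359855 (minus strand) for Mcm6, chr19:38930840-38930989 (plus strand) for Hells, chr1:191575545-191575694 (minus strand) for Dtl and chr12:24708104-24708253 (plus strand) for Rrm2. RefSeq promoters (250 bases before to 50 after the start) were matched for 41 of the 47 genes; Mcm4, Gins2, Ccne2, Ccna2, Tpx2 and Aurkb had no entry. Matches were counted per gene, in any promoter listed for it. TTTGAA was found for 15 of 22 mitosis genes (68.2%) and 2 of 19 replication genes (10.5%), against 20.2% of all 27025 genes with a promoter. An E2F word was found for 1 mitosis gene (4.55%) and 11 replication genes (57.9%), against 2.70% of all. CCAAT was found for 17 mitosis genes (77.3%) and 14 replication genes (73.7%), against 41.1% of all. A match is a string of letters and does not show that a factor binds there. The Rrm2 stretch holds a CCAAT box and neither of the other motifs.

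Cells were kept with at least 500 transcripts, which left 14840 cells in the 24 samples, 191 to 1886 per sample. The samples held between 1821737 and 30127065 transcripts, and no cell barcode stood under more than 1 sample name. Epcam, which defines the sorted epithelium, ran from 912.4 to 2030.2 CPM (counts scaled to the same total per sample), and Ptprc, which codes for CD45, from 0 to 25.1 CPM. Over 0.5% of the transcripts of the median cell were mitochondrial in 4 cecal samples (Abx_4D 2, Abx_14D 3 and 4, GF 4). Colon Ctrl kept 50 cells and Colon Abx_4D 1026, of which 857 were in 1 sample, so neither was compared. In the GENCODE annotation given here (build GRCm38) the exons of 13 of the 47 genes overlap those of another gene, mostly on the opposite strand (for example Mcm7 with Cops6, Cdc45 with Ufd1, Ube2c with Tnnc2, Cdc20 with Elovl1); no source used here says whether counting used the strand, so values of these genes may hold reads of the partner.

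Most transcripts of the mitosis genes lay in cells with Mki67, and those of the replication genes were spread wider. Cells were called Mki67-positive where at least 1 Mki67 transcript remained after each cell had been thinned to 2000 transcripts; Mki67 (Ki-67) codes for a protein of the chromosome surface found in cycling cells. Of 14273 cells with that depth (567 shallower cells were left out, 3 to 57 per sample), 3554 (24.9%) were positive, and they held 29.2% of the transcripts. For the 25 mitosis genes, a median of 85.7% of transcripts lay in these cells, from 68.8% for Hmgb2, a chromatin protein, to 91.3% for Aspm, a spindle pole protein. For the 22 replication genes the median was 49.6%, from 37.9% for Mcm2 to 69.0% for Brca1. The mean level in Mki67-positive cells over that in the other cells ranged between 4.81-fold (Hmgb2) and 20.3-fold (Aspm) for the mitosis genes, with a median of 11.9, and between 1.49-fold (Mcm2) and 4.60-fold (Brca1) for the replication genes, with a median of 2.23. Of the replication genes, Rrm2 (4.23-fold), Clspn, a checkpoint mediator (4.17-fold), Cdc45 (3.44-fold), Rrm1 (3.34-fold) and Uhrf1, a reader of freshly copied methylated DNA (3.12-fold), also leaned to Mki67-positive cells. No test was made, because 1 of the 47 genes defined the cells. Mki67-positive cells made up 21.9% ± 2.15 of Colon GF, 18.8% ± 4.13 of Colon Abx_14D, 24.9% ± 3.68 of Cecum GF, 30.3% ± 1.25 of Cecum Abx_14D, 32.4% ± 5.58 of Cecum Abx_4D and 31.3% ± 5.78 of Cecum Ctrl (SD, n = 4 each). Without thinning the shares with an Mki67 transcript were 44.8%, 39.1%, 48.97%, 55.2%, 57.3% and 57.9% in the same order. Of 201 cells with tuft markers, 4.48% were positive after thinning.

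**Figure D1:**
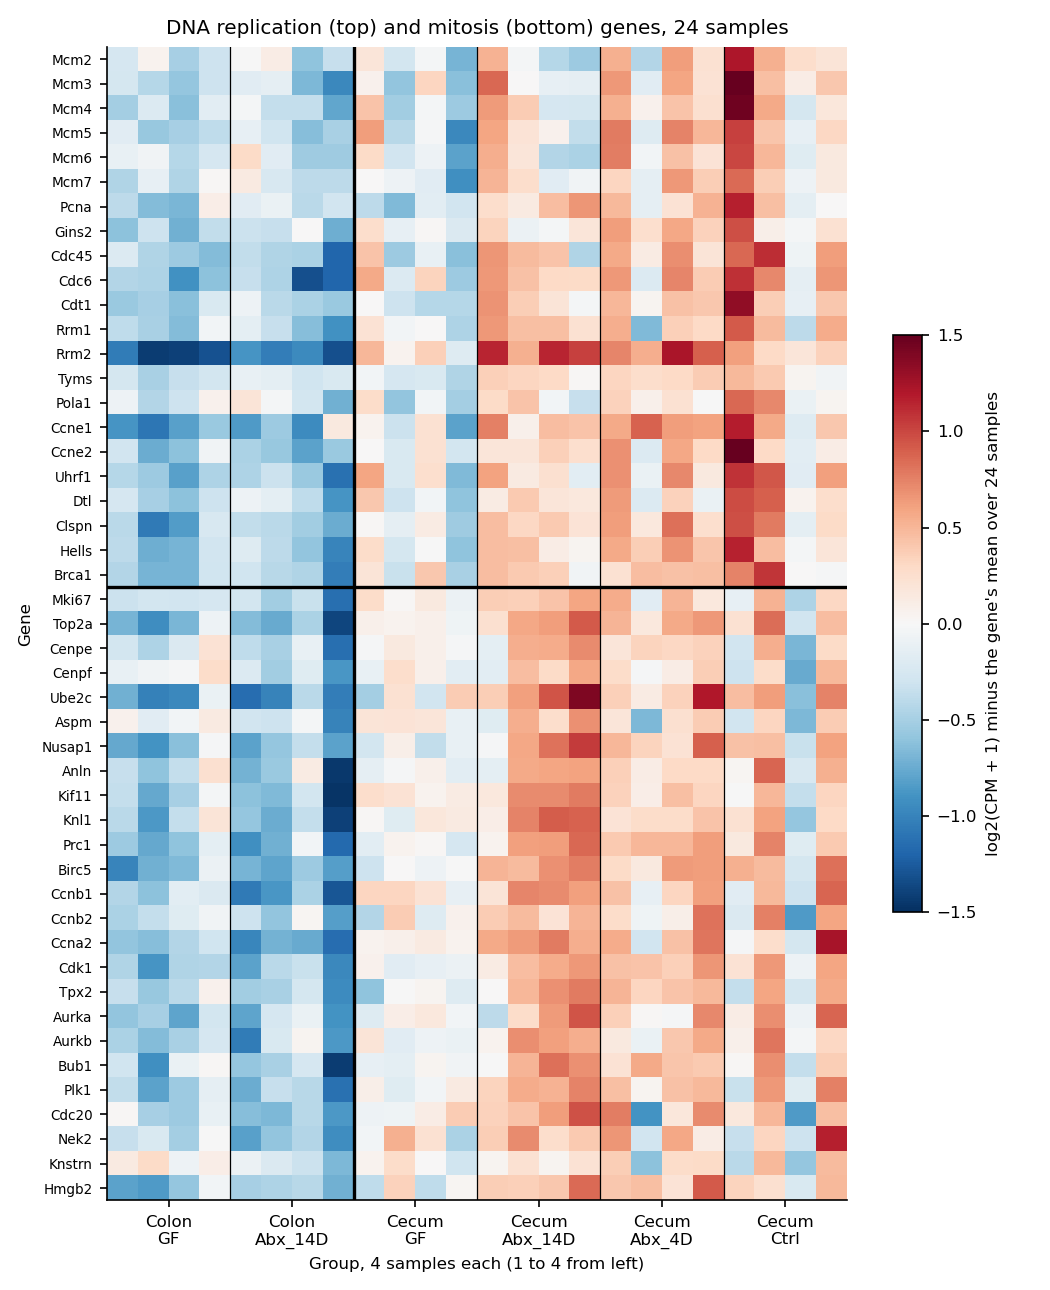
Levels of the 47 genes in the 24 samples, as log2(CPM + 1) minus the mean of each gene over all samples (colour), with replication genes above the horizontal line and mitosis genes below it. The 8 colon samples left of the thick line are mostly blue and the cecal Abx samples mostly red; Cecum Ctrl 1 is red for the replication genes and Colon Abx_14D 4 blue for the mitosis genes.

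The first comparison set colon against cecum within Abx_14D mice. In the colon 39 of the 47 genes were lower than in the cecum and none was higher: all 25 mitosis genes and 14 of the 22 replication genes (edgeR's quasi-likelihood test, adjusted p under 0.05 over all genes). Of all 13945 genes tested, 16.5% were lower in the colon. The median log2 fold change was -0.97 over the 47 genes, -1.20 over the mitosis genes and -0.70 over the replication genes, against 0.02 over all genes tested. All 47 genes passed the filter on low counts. The ranges of colon and cecal samples did not overlap for 34 of the 47. That count is given without its share over all genes, so it shows no trait particular to the 47. In these sums over cells, fewer dividing cells and fewer transcripts per dividing cell cannot be told apart.

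Rrm2, the small subunit of ribonucleotide reductase that is made anew in each S phase, differed most. Its level was 11.9, 10.7, 11.3 and 8.599 CPM in Colon Abx_14D samples 1 to 4, against 52.1, 33.6, 51.7 and 47.6 CPM in Cecum Abx_14D samples 1 to 4. Every colon sample was below every cecal sample. The log2 fold change was -2.11 ± 0.18 (SE), which is 4.33-fold lower in the colon (adjusted p = 1.499e-07, edgeR). The large subunit Rrm1, whose protein is steadier through the cycle, was also lower, at 32.6 ± 7.59 CPM in the colon and 63.01 ± 7.503 CPM in the cecum (SD, n = 4 each; log2 fold change -0.94 ± 0.18, adjusted p = 6.78e-04, edgeR). Tyms had 28.1, 27.4, 24.6 and 25.9 CPM in the colon samples, against 39.2, 38.2, 37.8 and 30.96 CPM in the cecal samples, so the ranges stood apart by a small margin (log2 fold change -0.46 ± 0.12, adjusted p = 0.00552, edgeR).

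None of the helicase genes Mcm2 to Mcm7 was called, nor were Gins2 and Pola1, the catalytic subunit of the primase polymerase. Mcm2 had 26.9, 29.3, 17.4 and 21.1 CPM in Colon Abx_14D samples and 39.4, 26.5, 19.9 and 18.3 CPM in Cecum Abx_14D samples, with overlapping ranges (log2 fold change -0.12 ± 0.24, 95% interval -0.59 to 0.35). Mcm6 had 77.5, 56.4, 43.5 and 43.5 CPM in the colon samples and 93.2, 72.1, 46.3 and 45.3 CPM in the cecal samples, and sample 1 was the highest in both tissues. Mcm3 (-0.68, adjusted p = 0.051, edgeR), Mcm4 (-0.54, adjusted p = 0.0905, edgeR), Mcm5 (-0.54, adjusted p = 0.1202, edgeR), Mcm7 (-0.37, adjusted p = 0.166, edgeR) and Gins2 (-0.50, adjusted p = 0.0589, edgeR) missed the threshold, and their calls depended on the setting. Same-numbered samples of these groups deviated together, and with the sample number as a block Mcm3 (-0.66, adjusted p = 0.0276, edgeR) and Mcm5 (-0.52, adjusted p = 0.0409, edgeR) were lower. In Cd44-positive cells Mcm3, Mcm4, Mcm5, Mcm7 and Gins2 were lower, and without the samples of over 0.5% mitochondrial transcripts Mcm3 (-0.96), Mcm4 (-0.88), Mcm5 (-0.80) and Mcm7 (-0.60) were. TMM scaling and DESeq2 both called Mcm3 and Gins2, and DESeq2 also Mcm4. No setting called Mcm2 or Mcm6. The intervals of Mcm2 and Mcm6 still allow a drop as large as that of Knstrn, a called gene given below.

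The factors that load the helicase and drive S phase were lower. Cdc6 had 8.36, 7.67, 3.78 and 4.25 CPM in the colon samples, against 17.7, 15.2, 13.7 and 13.5 CPM in the cecal samples (log2 fold change -1.27 ± 0.27, adjusted p = 0.00144, edgeR). Cdt1 had a log2 fold change of -0.72 ± 0.18 and Cdc45 of -1.03 ± 0.28. Both E cyclins, which activate Cdk2 at the entry to S phase, were called: Ccne1 had 3.45, 4.47, 3.18 and 7.84 CPM in the colon and 12.5, 7.44, 9.99 and 9.801 CPM in the cecum, and the ranges overlapped through Colon Abx_14D 4 (log2 fold change -1.08 ± 0.29). Ccne2 had 12.6, 11.8, 9.83 and 11.9 CPM in the colon and 20.3, 20.4, 23.1 and 21.5 CPM in the cecum, without overlap (log2 fold change -0.88 ± 0.17).

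At the fork, Pcna had 70.6, 74.3, 59.9 and 65.2 CPM in Colon Abx_14D samples, against 95.7, 87.99, 110.5 and 127 CPM in Cecum Abx_14D samples (log2 fold change -0.64 ± 0.17, adjusted p = 0.00676, edgeR). The 2 sets did not overlap. Uhrf1 had 25.8, 28.4, 24.04 and 16.001 CPM in the colon samples and 54.8, 39.4, 42.6 and 31.9 CPM in the cecal samples (log2 fold change -0.84 ± 0.24). Clspn (-0.88), Brca1, a repair factor (-0.85), Hells, a chromatin remodeller (-0.80), and Dtl, which targets Cdt1 for destruction (-0.56), were lower as well.

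Among the mitosis genes, Ube2c, Ccna2 and Ccnb1 had the largest changes. Ccna2 (cyclin A2) had 13.9, 16.99, 16.3 and 12.3 CPM in Colon Abx_14D samples, against 42.5, 44.9, 49.2 and 41.95 CPM in Cecum Abx_14D samples. The colon samples lay far below the cecal samples, and the fold change was -1.59 ± 0.12 on the log2 scale (adjusted p = 5.19e-08, edgeR). Ccnb1 (cyclin B1) had 8.13, 9.41, 12.7 and 6.86 CPM in the colon samples, against 20.7, 30.6, 30.1 and 28.1 CPM in the cecal samples (log2 fold change -1.58 ± 0.19). Ube2c had 8.53, 9.498, 14.8 and 9.25 CPM in the colon samples, against 26.2, 31.1, 39.4 and 54.3 CPM in the cecal samples (log2 fold change -1.87 ± 0.28, adjusted p = 6.86e-05, edgeR). Cdc20 was lower too, with 8.03, 7.85, 9.53 and 6.75 CPM in the colon and 16.95, 17.97, 20.8 and 26.4 CPM in the cecum (log2 fold change -1.36 ± 0.19).

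The mitotic kinases followed. Cdk1 had 11.6, 15.6, 16.5 and 10.2 CPM in the colon samples and 23.005, 29.2, 31.5 and 33.5 CPM in the cecal samples (log2 fold change -1.13 ± 0.17, adjusted p = 7.35e-05, edgeR). Plk1, which acts from spindle assembly to exit, had 8.796, 11.9, 11.3 and 6.53 CPM in the colon samples and 19.7, 23.1, 22.5 and 26.4 CPM in the cecal samples (log2 fold change -1.26 ± 0.19). The colon samples lay below the cecal samples for both kinases. Aurka (-1.03), Aurkb (-1.08), Bub1 of the spindle checkpoint (-1.23) and Nek2 of the centrosome (-1.20) were lower as well.

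The genes of chromosome structure and of the spindle were lower as well. Mki67 had 319, 269, 308 and 177 CPM in Colon Abx_14D samples, against 503, 497, 521 and 582 CPM in Cecum Abx_14D samples (log2 fold change -0.97 ± 0.14, adjusted p = 7.48e-05, edgeR). Top2a, the topoisomerase that untangles sister chromatids, had 110.5, 103, 125 and 66.3 CPM in the colon samples, against 207, 262, 270.1 and 330.4 CPM in the cecal samples (log2 fold change -1.40 ± 0.19). Hmgb2 had 139, 142, 147 and 119 CPM in the colon samples, against 254, 252, 261 and 354 CPM in the cecal samples (log2 fold change -1.04 ± 0.19). Colon Abx_14D 4 was the lowest sample for all 3 genes. Cenpf, a kinetochore protein, had 88.99, 71.7, 91.03 and 55.8 CPM in the colon and 92.6, 143, 126 and 154 CPM in the cecum, and its ranges were close (log2 fold change -0.74 ± 0.17). Knl1, the scaffold of the outer kinetochore, had 40.6, 36.2, 47.5 and 22.6 CPM in the colon samples, against 65.9, 103, 116 and 114 CPM in the cecal samples (log2 fold change -1.45 ± 0.23). Birc5 (survivin), of the complex that guides Aurora B, had a log2 fold change of -1.40 ± 0.17. Knstrn, a spindle adaptor, was the mitosis gene with the smallest change (-0.45 ± 0.15, adjusted p = 0.02297, edgeR). The other mitosis genes (Cenpe, Aspm, Nusap1, Anln, Kif11, Prc1, Ccnb2 and Tpx2) had log2 fold changes between -1.34 and -0.75.

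Other measures differed between these tissues as well. Of 10 markers of mature absorptive cells, 8 were lower in Colon Abx_14D, and their summed level was 2645.1 to 3668.2 CPM in the colon and 3182.2 to 12235 CPM in the cecum. Of 8 tuft cell markers, 7 were higher in the colon, with sums of 163.8 to 253.9 CPM in the colon and 12.8 to 170.7 CPM in the cecum. Of 7 goblet markers, 3 were higher and 2 lower, and 1 of 7 enteroendocrine markers tested was higher. Of 16 crypt genes, 10 were higher in the colon and none lower, among them Tnfrsf19 (2.10 ± 0.42), Nkd1 (1.24 ± 0.33) and Axin2, a Wnt target (1.10 ± 0.20, adjusted p = 5.22e-04, edgeR), while Lgr5, the stem cell receptor, was not called (0.10 ± 0.31). Cd44, the gene of the sorted protein, was not called either (0.07 ± 0.27); cells with a Cd44 transcript after thinning made up 47.4, 37.1, 32.2 and 28.6% of Colon Abx_14D samples and 39.4, 40.1, 21.9 and 31.6% of Cecum Abx_14D samples. Summed immune markers reached at most 16.1 CPM and stromal markers at most 8.17 CPM in these 8 samples, with Cd3e, Lyz2 and Col1a1 at 0 in every Cecum Abx_14D sample and Col3a1 at 0 in every Colon Abx_14D sample. The part of the absorptive, tuft and goblet cells in the result was not tested. With cells of at least 1 Cd44 transcript only, 44 of the 47 genes were lower in the colon; without the samples of over 0.5% mitochondrial transcripts, 37 were.

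**Figure D2:**
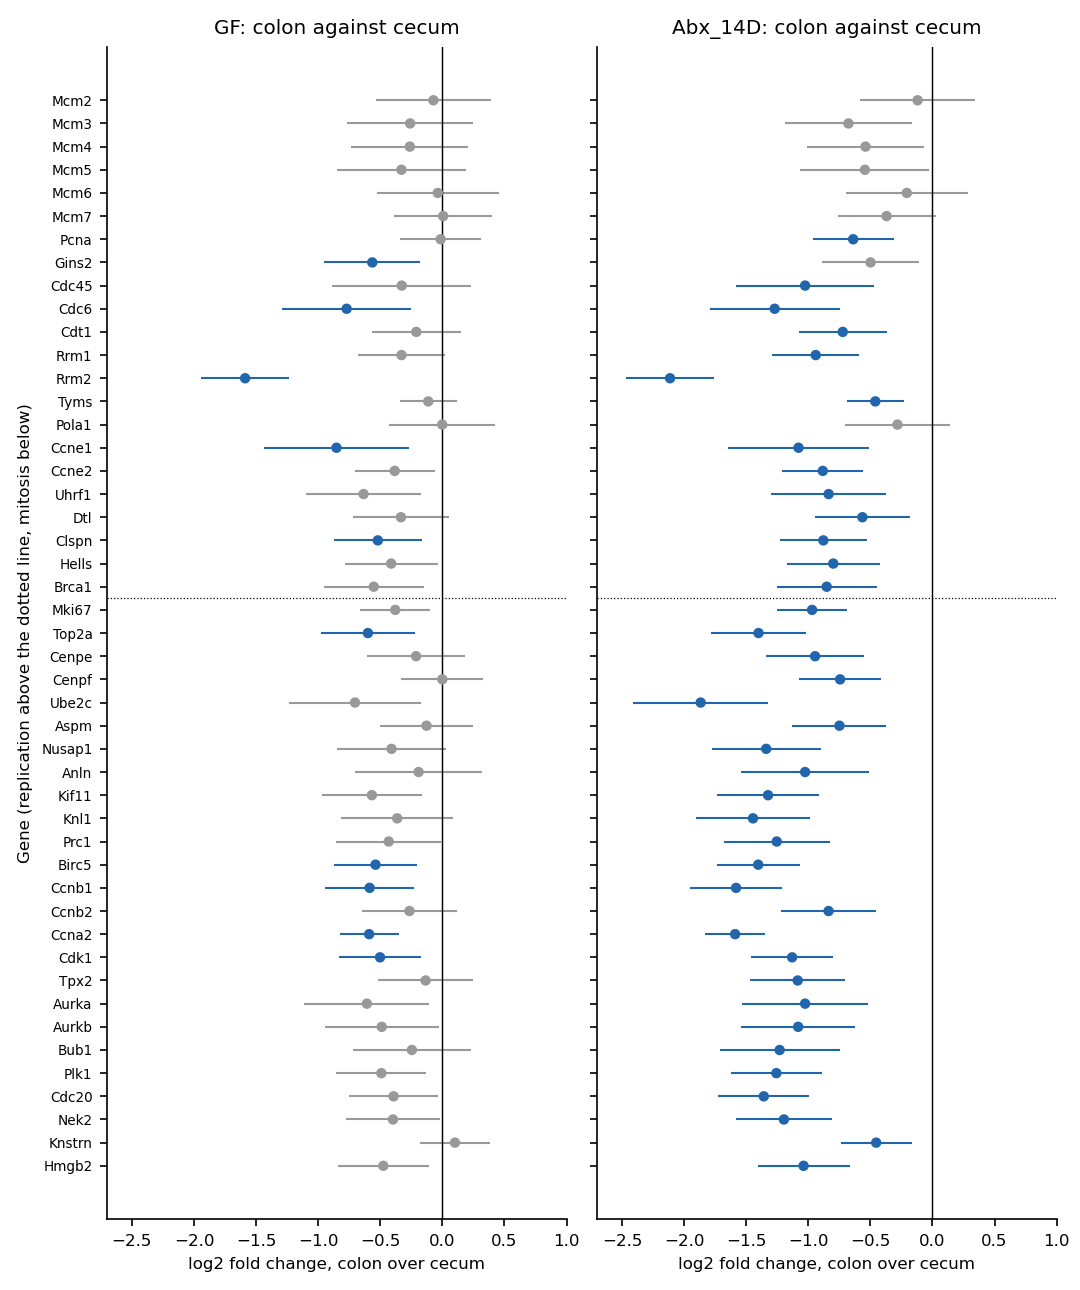
Log2 fold change of each gene, colon over cecum, in GF mice (left) and Abx_14D mice (right), with the 95% interval as a line. Blue marks genes called lower by edgeR (10 in GF, 39 in Abx_14D) and grey those not called; Rrm2 lies farthest left in both panels.

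In GF mice the same contrast gave a smaller set. In the colon 10 of the 47 genes were lower than in the cecum and none was higher (edgeR, adjusted p under 0.05), where 9.28% of all 13945 genes were lower. The median log2 fold change was -0.38 over the 47 genes, against 0.06 over all genes tested. Rrm2 had 10.5, 7.94, 8.06 and 8.66 CPM in Colon GF samples 1 to 4, against 32.8, 23.8, 29.6 and 19.9 CPM in Cecum GF samples 1 to 4. It was again the gene with the largest change, -1.59 ± 0.18 on the log2 scale or 3.01-fold lower in the colon (adjusted p = 4.74e-06, edgeR), with no overlap between the samples. The other called replication genes were Ccne1 (-0.85 ± 0.30), Cdc6 (-0.77 ± 0.26), Gins2 (-0.56 ± 0.20) and Clspn (-0.52 ± 0.18). Ccne1 had 3.34, 2.77, 3.54 and 4.45 CPM in the colon samples and 7.31, 5.42, 8.41 and 3.59 CPM in the cecal samples, with Cecum GF 4 inside the colon range. Cdc6 had 7.802, 7.68, 5.35 and 6.79 CPM in the colon samples and 16.7, 9.39, 14.1 and 7.17 CPM in the cecal samples, where GF 4 was again inside the colon range.

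The called mitosis genes in GF mice were Top2a, Ccna2, Ccnb1, Birc5 and Cdk1. Ccna2 had 18.6, 17.9, 20.7 and 22.9 CPM in Colon GF samples, against 29.4, 29.9, 31.3 and 29.4 CPM in Cecum GF samples, 2 sets with a clear gap (log2 fold change -0.59 ± 0.12, adjusted p = 0.00172, edgeR). Ccnb1 had 13.02, 11.4, 16.04 and 15.4 CPM in the colon samples and 22.8, 22.9, 21.2 and 16.5 CPM in the cecal samples (log2 fold change -0.59 ± 0.18). Top2a had 107, 91.2, 108 and 166 CPM in the colon samples and 184, 181, 184 and 167 CPM in the cecal samples, with Colon GF 4 just under the cecal samples (log2 fold change -0.60 ± 0.19). Cdk1 (-0.50 ± 0.17) and Birc5 (-0.54 ± 0.17) completed the set. Mki67 had 310.1, 319, 317 and 326 CPM in the colon samples and 470.4, 391, 428 and 366 CPM in the cecal samples; its ranges did not overlap, yet it was not called (log2 fold change -0.38 ± 0.14, adjusted p = 0.064995, edgeR). Cenpf had 105 ± 13.2 CPM in the colon and 105 ± 14.4 CPM in the cecum (SD, n = 4 each), and the 95% interval of its log2 fold change ran from -0.33 to 0.33. Ube2c (-0.70, adjusted p = 0.0699, edgeR), Plk1 (-0.49, adjusted p = 0.0634, edgeR), Hmgb2 (-0.48, adjusted p = 0.0764, edgeR) and Cdc20 (-0.39, adjusted p = 0.135, edgeR) did not pass.

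The size of the GF set depended on single samples and settings. It held 2 genes without Cecum GF 3 or without sublibrary 1, 3 without Colon GF 1, 2 or 3, 4 without Cecum GF 2, 6 without Cecum GF 1, and 6 with cells of at least 1 Cd44 transcript. It held 17 with TMM scaling and 21 with DESeq2. Rrm2 and Ccna2 were called under every setting tried. Beside it, 7 of 10 absorptive markers were lower in Colon GF (summed level 2517.5 to 3074.8 CPM in the colon and 3985.0 to 9567.4 CPM in the cecum), no tuft marker was called, 2 goblet markers were higher and 3 lower of 7 (summed level 3657.8 to 9879.8 CPM in the colon and 2886.2 to 4688.4 CPM in the cecum), 2 of 7 enteroendocrine markers tested were higher, and 12 of 16 crypt genes were higher; their part in the result was not tested.

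Whether the tissues differed by a different amount in the 2 conditions was tested directly. The difference of the log2 fold changes, GF minus Abx_14D, was above 0 for 46 of the 47 genes, with a median of 0.59, but none was called (edgeR; 0.0% of all genes called). At an unadjusted p under 0.05 there were 25 of the 47 genes, and 776 of all 13945. These were 22 of 25 mitosis genes, with a median difference of 0.80, and 3 of 22 replication genes, with a median of 0.35, against a median of 0.04 over all genes. Of the 60 further mitosis genes described at the end, 45 had such a p, with a median difference of 0.71. Ccna2 came closest (1.00 ± 0.17, adjusted p = 0.126, edgeR), and it was called with DESeq2. For Rrm2 the difference was 0.52 ± 0.25 (adjusted p = 0.90004, edgeR). For no single gene was the difference between the conditions called.

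**Figure D3:**
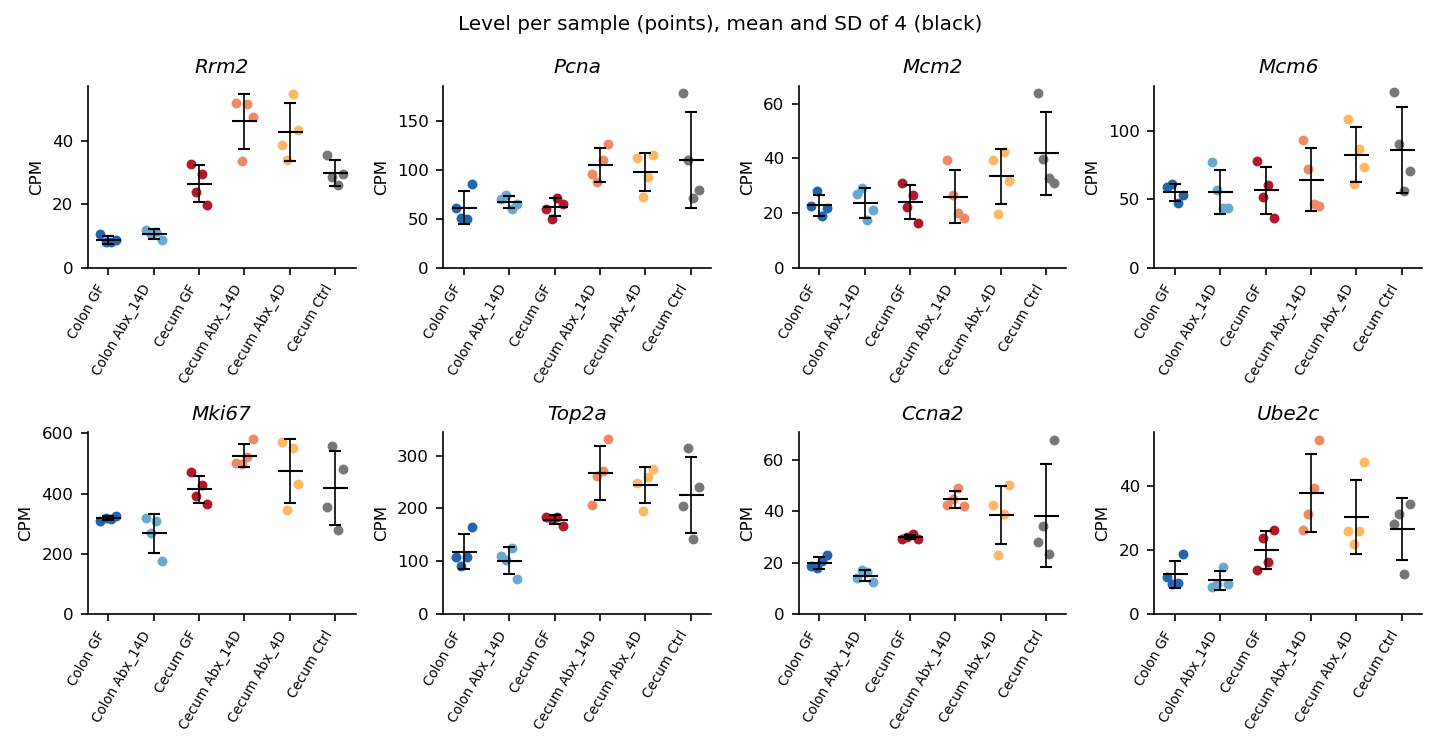
CPM of 8 genes in each sample (points) with the mean and SD of 4 samples (black), for the 6 groups from Colon GF to Cecum Ctrl. For Rrm2 the 8 colon samples lie between 7.94 and 11.9 CPM and the 16 cecal samples between 19.9 and 55.1 CPM; for Mcm2 and Mcm6 colon and cecum overlap.

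Next, only Mki67-positive cells were summed, so that the genes were read within cells that held Mki67, and Mki67 was not tested. These are not all and only the dividing cells. A median of 49.6% of the transcripts of the replication genes lay in them, and 4.48% of cells with tuft markers were positive too. In Abx_14D mice 20 of 46 genes were lower in the colon and none higher (edgeR; 10.7% of all 11803 genes lower). These were 12 of 24 mitosis genes and 8 of 22 replication genes, and the median log2 fold change was -0.48, against -0.05 over all genes. In GF mice 5 of 46 were lower, all of them replication genes (edgeR; 4.59% of all genes lower), with a median of -0.51 over the replication genes and -0.20 over the mitosis genes.

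Rrm2 had 25.7, 41.98, 24.5 and 28.7 CPM in Mki67-positive cells of Colon Abx_14D samples, against 97.3, 51.9, 109 and 101 CPM in those of Cecum Abx_14D samples (log2 fold change -1.58 ± 0.22, adjusted p = 2.61e-05, edgeR). In GF mice it had 27.2, 18.6, 16.8 and 24.4 CPM in the colon samples, against 67.2, 55.6, 64.8 and 52.3 CPM in the cecal samples (log2 fold change -1.46 ± 0.22, adjusted p = 8.54e-05, edgeR). No colon sample reached the lowest cecal sample of its condition. The share of all cells with an Rrm2 transcript after thinning was 1.198% ± 0.1898 in Colon GF, 1.45% ± 0.295 in Colon Abx_14D, 3.68% ± 1.501 in Cecum GF and 5.88% ± 0.681 in Cecum Abx_14D (SD, n = 4 each). As counted, without thinning, the shares were 6.99%, 6.33%, 19.5% and 25.1% in the same order. In 201 cells with tuft markers, which do not divide, 0 held an Rrm2 transcript after thinning, which allows a share of up to 1.49%. Their median depth was 6932 transcripts, against 14801.5 in the other cells. Of 50 cells with enteroendocrine markers, 1 (2%) held an Rrm2 transcript. The colon means of 1.198% and 1.45% lie below the limit of 1.49% and below the 2%. The first is only a limit for a count of 0, and the second rests on 1 cell. These cells therefore do not decide how much of the colon shares is background. Over all groups, the Rrm2 level was 4.23-fold higher in Mki67-positive cells than in the others, and it was higher there in all 24 samples.

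After Rrm2, the called genes with the largest changes in Mki67-positive cells of Abx_14D mice were Ube2c (-1.17 ± 0.31, 2.25-fold lower), Ccnb1 (-0.86 ± 0.19), Plk1 (-0.81 ± 0.21) and Ccna2 (-0.75 ± 0.15). Of the helicase, Mcm3 (-0.61 ± 0.21), Mcm4 (-0.53 ± 0.16) and Mcm7 (-0.44 ± 0.15) were called here; their fold changes over all kept cells, given above, were of like size and not called. In GF mice the called genes after Rrm2 were Gins2 (-0.84 ± 0.22), Mcm2 (-0.66 ± 0.20), Ccne2 (-0.61 ± 0.18) and Hells (-0.60 ± 0.15). Gins2, a subunit of the active helicase, had 6.84, 8.77, 6.94 and 9.16 CPM in the colon samples, against 17.5, 13.5, 13.2 and 12.7 CPM in the cecal samples. Mki67 itself, used to pick the cells, had 1097 ± 69.3 CPM in Colon GF, 1029 ± 132 in Colon Abx_14D, 1180.1 ± 59.6 in Cecum GF and 1229 ± 187 in Cecum Abx_14D (SD, n = 4 each). The test of the difference between conditions called none of the 46 (edgeR; 0.0% of all genes called, 2 of the 46 and 599 of all 11803 genes at an unadjusted p under 0.05).

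These sets also moved with single samples and with how cells were picked. In Abx_14D mice the count was 7 without Colon Abx_14D 1, 8 without Cecum Abx_14D 3, 10 without Cecum Abx_14D 4 and 12 without Colon Abx_14D 3 or 4. It was 11 with at least 2 Mki67 transcripts of 5000 and 2 with Top2a-positive cells. In GF mice it was 3 without Cecum GF 3 or Colon GF 2 or 3, 9 without Cecum GF 2, 8 without Colon GF 4, 11 with DESeq2, 9 with at least 2 Mki67 transcripts of 5000 and 2 with Top2a-positive cells. Rrm2 was called under every setting tried in both conditions, and Ccna2 in Abx_14D mice.

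**Figure D4:**
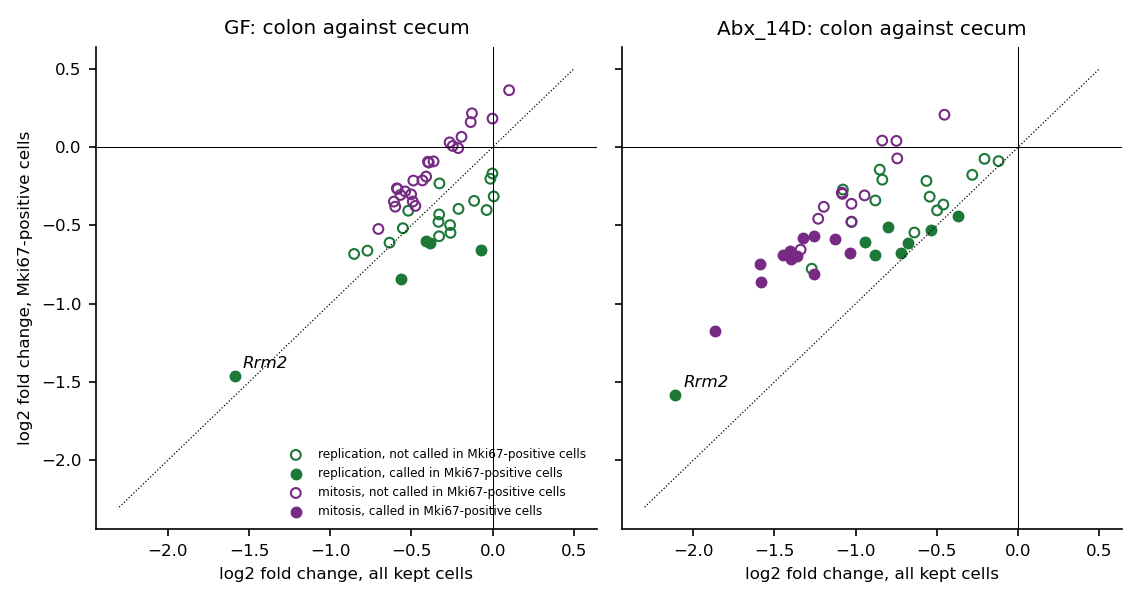
Log2 fold change, colon over cecum, of 46 genes in Mki67-positive cells (vertical axis) against all kept cells (horizontal axis), in GF mice (left) and Abx_14D mice (right); filled points were called in Mki67-positive cells. Rrm2 lies lowest in both panels, at -1.46 in Mki67-positive cells and -1.59 in all cells of GF mice and at -1.58 and -2.11 in Abx_14D mice; the mitosis genes (purple) lie above the dotted line of equal change.

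Within the cecum no gene of the 47 passed the test in any of the 6 comparisons (edgeR, 16 samples in 1 fit). The largest body of differences was GF against Ctrl, the comparison of mice without microbes with controls, in which 5.17% of all 13376 genes were called. At an unadjusted p under 0.05 there were 20 of the 47 genes, 16 of them replication genes, and 2442 of all genes. The median SE of the 47 fold changes was 0.24, and even the lowest log2 fold change of the 47, -0.91, was not called. All 22 replication genes had negative fold changes, with a median of -0.63, and 22 of 25 mitosis genes did, with a median of -0.31, against -0.02 over all genes tested. Pcna had 60.4, 49.99, 71.6 and 65.3 CPM in Cecum GF samples, against 179.5, 109.8, 71.7 and 79.98 CPM in Cecum Ctrl samples, where Ctrl 1 was far above the rest (log2 fold change -0.82 ± 0.24, adjusted p = 0.0525, edgeR). Cdt1 had 12.8, 10.1, 9.25 and 9.18 CPM in the GF samples and 33.4, 16.7, 11.6 and 17.2 CPM in the Ctrl samples (log2 fold change -0.90 ± 0.26, adjusted p = 0.0536, edgeR). Rrm2, so different between the tissues, had 32.8, 23.8, 29.6 and 19.9 CPM in the GF samples and 35.7, 28.5, 26.1 and 29.5 CPM in the Ctrl samples (log2 fold change -0.17 ± 0.19).

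Cecum Ctrl 1 stood high for the replication genes. The 22 genes together reached 998, 666, 861 and 575 CPM in Cecum GF samples 1 to 4, against 1791, 1298, 802 and 992 CPM in Cecum Ctrl samples 1 to 4. The 25 mitosis genes together reached 1540.3, 1647, 1548 and 1469 CPM in the GF samples, against 1545, 2212, 1139 and 2106 CPM in the Ctrl samples. Cecum Ctrl 1 also had the most Cd44 (704 CPM, against 300.2 to 525 CPM in the other 3 Ctrl samples) and 191 kept cells, which with Cecum Abx_4D 2 is the fewest of the 24 samples. Without it the median fold change of the 47 genes was -0.39, against -0.47 with it, and no gene was called. Without Ctrl 3, 6 were called; without GF 1, 3; without Ctrl 4, 1. Other settings called 3 (TMM scaling), 6 (DESeq2), 2 (no filter on low counts), 3 (cells with a Cd44 transcript) and none (limma-voom). Goblet markers moved beside them: 3 of 7 were higher in GF, with sums of 2886.2 to 4688.4 CPM in GF and 1741.8 to 9654.3 CPM in Ctrl. Their part in the result was not tested.

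Against the antibiotic groups, GF samples also had lower values without a call. In GF against Abx_14D, where 0.643% of all genes were called, the fold changes of all 47 genes were negative, with a median of -0.47, and 21 had an unadjusted p under 0.05, as did 1119 of all genes (none called by edgeR or limma-voom, 5 by DESeq2). Rrm2 had 32.8, 23.8, 29.6 and 19.9 CPM in GF samples, against 52.1, 33.6, 51.7 and 47.6 CPM in Abx_14D samples, without overlap (log2 fold change -0.80 ± 0.19, adjusted p = 0.0698, edgeR). Birc5 had 16.1, 20.2, 19.1 and 20.1 CPM in GF samples, against 29.2, 28.5, 32.9 and 35.02 CPM in Abx_14D samples, also without overlap (log2 fold change -0.73 ± 0.20, adjusted p = 0.135, edgeR). In GF against Abx_4D, where 1.38% of all genes were called, 17 of the 47 had an unadjusted p under 0.05, as did 1595 of all genes (2 called by DESeq2). Tyms came closest there, with 29.7, 25.4, 25.9 and 21.9 CPM in GF samples, against 38.4, 36.8, 37.6 and 39.9 CPM in Abx_4D samples (log2 fold change -0.57 ± 0.15, adjusted p = 0.0722, edgeR). These comparisons share the GF samples, and those against Ctrl share the Ctrl samples.

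In the cecum of antibiotic-treated mice no excess of low p-values over all genes was seen among the 47 genes. In Abx_14D against Ctrl, where 2.14% of all genes were called, 4 of the 47 had an unadjusted p under 0.05, a smaller share than the 1872 of all 13376 genes. Rrm2 had 52.1, 33.6, 51.7 and 47.6 CPM in Abx_14D samples, against 35.7, 28.5, 26.1 and 29.5 CPM in Ctrl samples, and only Abx_14D 2 fell inside the Ctrl range (log2 fold change 0.63 ± 0.19, adjusted p = 0.105, edgeR). Same-numbered samples of these 2 groups deviated together, and with the sample number as a block Rrm2 was called (0.61 ± 0.16, adjusted p = 0.0446, edgeR), as it was with DESeq2. Mcm2 had 39.4, 26.5, 19.9 and 18.3 CPM in Abx_14D samples and 64.1, 39.6, 32.6 and 30.98 CPM in Ctrl samples (log2 fold change -0.67 ± 0.29). In Abx_4D against Ctrl, where 0.493% of all genes were called, 1 of the 47 had an unadjusted p under 0.05, against 1273 of all genes; it was again Rrm2, with 38.7, 34.03, 55.1 and 43.7 CPM in Abx_4D samples (log2 fold change 0.54 ± 0.19). In Abx_14D against Abx_4D none of the 47 did, against 560 of all genes (0.0598% of all genes called).

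Across the cecal groups Mki67 averaged 414 ± 45.7 CPM in GF, 526 ± 39.1 CPM in Abx_14D, 474 ± 106 CPM in Abx_4D and 418 ± 124 CPM in Ctrl (SD, n = 4 each). Top2a averaged 179 ± 8.11, 267 ± 50.6, 244 ± 34.3 and 225 ± 71.9 CPM in the same order. Ccna2 averaged 29.99 ± 0.896, 44.6 ± 3.32, 38.6 ± 11.4 and 38.4 ± 20.2 CPM in the same order. For these 3 mitosis genes the 2 antibiotic groups had the higher means and GF the lowest, but none of these differences was called. The gaps between Abx_4D and Ctrl for Ccna2 and between GF and Ctrl for Mki67 were far smaller than the SD. The cyclin-removing enzyme Ube2c averaged 19.95 ± 5.96, 37.7 ± 12.3, 30.2 ± 11.5 and 26.6 ± 9.64 CPM in the same order. Hmgb2 averaged 188 ± 47.4, 280.2 ± 49.1, 282 ± 63.8 and 231 ± 45.9 CPM in the same order. Of the replication genes, Mcm6 averaged 56.5 ± 17.4, 64.2 ± 22.97, 82.5 ± 20.2 and 86.1 ± 31.4 CPM, and Uhrf1 averaged 37.4 ± 14.1, 42.2 ± 9.55, 47.8 ± 13.1 and 58.5 ± 19.9 CPM. Both had the highest mean and the widest spread in Ctrl. Cdc6 averaged 11.8 ± 4.34, 15.03 ± 1.93, 15.1 ± 4.26 and 17.7 ± 5.99 CPM in the same order. Tyms averaged 25.7 ± 3.17, 36.5 ± 3.77, 38.1 ± 1.33 and 36.0005 ± 6.71 CPM in the same order.

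In Mki67-positive cells of the cecum no gene was called in any of the 6 comparisons (edgeR). The shares of all genes called were 3.4% in GF against Ctrl, 0.0535% in GF against Abx_14D, 0.758% in GF against Abx_4D, 1.78% in Abx_14D against Ctrl, 0.357% in Abx_4D against Ctrl and 0.0446% in Abx_14D against Abx_4D. At an unadjusted p under 0.05 there were 3, 7, 8, 4, 1 and 1 of the 46 genes in the same order, against 1757, 951, 1071, 1519, 992 and 426 of all 11218 genes. The share of the 46 genes was above that of all genes in GF against Abx_14D and GF against Abx_4D and below it in the other 4. The median fold change of GF against Ctrl in these cells was -0.27 over the replication genes and -0.01 over the mitosis genes.

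In the colon, GF and Abx_14D were the only groups with enough cells. No gene of the 47 was called (edgeR; 1.09% of all 13940 genes called), and 7, all mitosis genes, had an unadjusted p under 0.05, as did 1512 of all genes. The median fold change was 0.24 over the mitosis genes and -0.03 over the replication genes. Ccnb1 had 13.02, 11.4, 16.04 and 15.4 CPM in Colon GF samples and 8.13, 9.41, 12.7 and 6.86 CPM in Colon Abx_14D samples (log2 fold change 0.60 ± 0.19, adjusted p = 0.259, edgeR). Ccna2 had 18.6, 17.9, 20.7 and 22.9 CPM in Colon GF samples and 13.9, 16.99, 16.3 and 12.3 CPM in Colon Abx_14D samples, without overlap (log2 fold change 0.43 ± 0.14). Mki67 had 310.1, 319, 317 and 326 CPM in Colon GF samples and 319, 269, 308 and 177 CPM in Colon Abx_14D samples, of which sample 4 was low (log2 fold change 0.24 ± 0.15). Rrm2 had a log2 fold change of -0.28 ± 0.16 there, with overlapping ranges. In Mki67-positive cells none was called (edgeR; 0.573% of all genes called); 12 of 46 and 922 of all 11179 genes had an unadjusted p under 0.05, and the medians were 0.16 over the mitosis genes and -0.40 over the replication genes.

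Single cells showed how replication and mitosis transcripts combined. Each cell was thinned to 2000 transcripts and counted for either list with at least 3 transcripts of it. Cells with both lists made up 4.02, 2.45, 2.41 and 5.51% of Colon GF samples, 4.75, 3.85, 4.83 and 3.66% of Colon Abx_14D samples, 7.58, 6.97, 7.43 and 5.88% of Cecum GF samples and 10.9, 9.74, 13.8 and 10.3% of Cecum Abx_14D samples. The means were 3.596% ± 1.48 in Colon GF, 4.27% ± 0.604 in Colon Abx_14D, 6.96% ± 0.765 in Cecum GF, 11.2% ± 1.83 in Cecum Abx_14D, 12.9% ± 1.78 in Cecum Abx_4D and 12.3% ± 3.11 in Cecum Ctrl (SD, n = 4 each). Every colon sample was below every cecal sample, and every Cecum GF sample below the samples of the other cecal groups. Cells with the mitosis list alone made up 12.3% ± 0.809 in Colon GF, 9.68% ± 2.96 in Colon Abx_14D, 13.6% ± 3.46 in Cecum GF, 15.2% ± 1.22 in Cecum Abx_14D, 16.2% ± 1.703 in Cecum Abx_4D and 14.1% ± 5.04 in Cecum Ctrl. Cells with the replication list alone were 10.6% ± 1.65 in Colon GF, 11.02% ± 2.67 in Colon Abx_14D, 9.92% ± 3.89 in Cecum GF, 9.51% ± 4.301 in Cecum Abx_14D, 14.5% ± 2.98 in Cecum Abx_4D and 16.3% ± 6.49 in Cecum Ctrl, and these ranges overlapped between tissues.

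The limit of 3 transcripts cuts a continuous range: 704 cells lay at it and 1369 one below it for the replication list, and 512 at it and 1059 one below it for the mitosis list. Of 201 cells with tuft markers 3.48% passed for either list, and of 50 cells with enteroendocrine markers 12% passed for the replication list and 2% for the mitosis list, against 18.6% and 20.2% of the other cells; the median depths were 6932, 20996 and 14801.5 transcripts. No test was made over these counts, since they are scores of the listed genes.

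**Figure D5:**
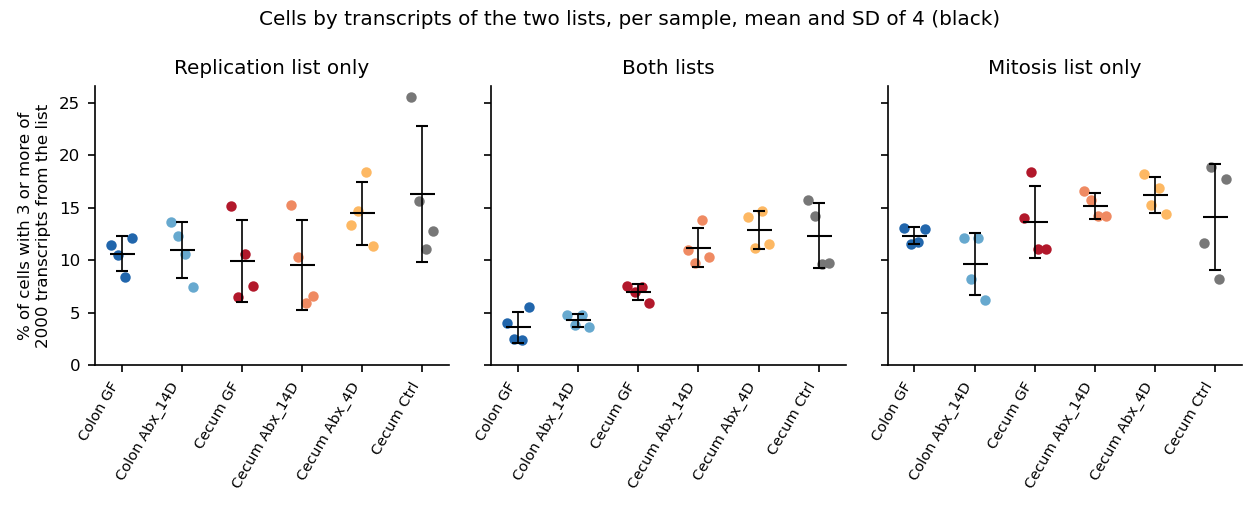
Share of cells with at least 3 of 2000 transcripts from the replication list only (left), from both lists (middle) and from the mitosis list only (right), per sample (points) with the mean and SD of 4 samples (black). In the middle panel the 8 colon samples reach at most 5.51% and the 16 cecal samples start at 5.88%.

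Other genes of the same pathways, listed separately from the 47 genes, were read in the same fits. These lists too were chosen with earlier results of these data known. Of 60 further mitosis genes, 56 were lower in Colon Abx_14D than in Cecum Abx_14D and none higher, led by Cenpw, a centromere protein (-1.60 ± 0.25), the kinase Pbk (-1.59 ± 0.25) and Gtse1 (-1.58 ± 0.21); in GF mice 10 were lower, led by Tubb4b (-0.89 ± 0.18), Gtse1 (-0.80 ± 0.21) and Pbk (-0.71 ± 0.25), and 1, Pimreg (1.29 ± 0.39), was higher. Of 48 further replication genes, 24 were lower and 1 higher in Abx_14D mice, and 4 lower and 1 higher in GF mice. Tk1, the thymidine kinase of the nucleotide salvage path, led them in both (-1.45 ± 0.19 in Abx_14D and -0.97 ± 0.19 in GF), followed by the clamp loader gene Rfc5 (-0.99 ± 0.15 and -0.58 ± 0.15), Dbf4 in Abx_14D (-1.01 ± 0.18) and Rfc2 in GF (-0.59 ± 0.15), and Orc1, an origin recognition subunit, was the one higher in both (0.42 ± 0.14 and 0.44 ± 0.14). Of 40 regulators of the cycle tested, 14 were lower and 4 higher in Abx_14D mice, and 4 lower and 3 higher in GF mice. Of all 13945 genes tested, 16.5% were lower and 2580 higher in Abx_14D mice, and 9.28% lower and 1998 higher in GF mice. The counts of further replication genes and of regulators lower in GF mice lie near that share.

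Single regulators went opposite ways. E2f2, an activator of S-phase genes, had 12.7 ± 1.06 CPM in Colon Abx_14D and 28.7 ± 1.18 CPM in Cecum Abx_14D (SD, n = 4 each; log2 fold change -1.18 ± 0.13, adjusted p = 3.02e-06, edgeR). Foxm1, an activator of mitotic genes, was lower there too (-1.17 ± 0.19), as was Cdkn1a, the inhibitor p21 (-2.04 ± 0.37). The cyclin D3 gene Ccnd3 was higher, with 95.6 ± 12.3 CPM in Colon Abx_14D and 32.6 ± 7.401 CPM in Cecum Abx_14D (log2 fold change 1.56 ± 0.17), and so was Mycn (2.53 ± 0.51). In GF mice E2f2 (-1.01 ± 0.13) and Cdkn1a (-1.59 ± 0.36) were lower in the colon, and Ccnd3 (0.76 ± 0.17), Ccnd2 (0.54 ± 0.12) and Mycn (2.26 ± 0.52) higher. In the cecum, GF against Ctrl, where 5.17% of all genes were called, 3 of 39 regulators tested were called, all lower in GF: E2f2 (-0.61 ± 0.15), the kinase Wee1 (-0.71 ± 0.20) and the phosphatase Cdc25a (-0.47 ± 0.12). So were 2 of the 48 further replication genes, Gins1 (-1.11 ± 0.28) and Gmnn, the inhibitor of Cdt1 (-0.84 ± 0.19), and none of the 60 mitosis genes. Of all 13376 genes tested there, 477 were lower in GF and 214 higher. Counts this small show no trait particular to these lists. Replication-dependent histone genes, whose transcripts mostly lack a poly(A) tail, gave 2 lower of 35 tested in Abx_14D mice, H2bc14 (-1.73 ± 0.43) and H1f5 (-0.78 ± 0.29), none in GF mice and 1 lower of 33 in Cecum GF against Ctrl, H2ac8 (-1.33 ± 0.35). These histone counts lie below the shares of all genes lower in the same comparisons. Of 10 genes of the dissociation stress response, 1 was higher in Colon Abx_14D, the chaperone gene Hspa1a (1.13 ± 0.41), 1 was higher in Colon GF, Jun (0.64 ± 0.23), and 1 was lower in Cecum GF against Ctrl, again Jun (-1.09 ± 0.23).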

How the data were processed

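The authors deposited a matrix of transcript counts per cell and gene, with a gene table and a cell table. The build mm39 and the tool Seurat are named, without a role, per the submitters' processing notes; the aligner, the counting tool and its annotation are unstated in the sources used here. Each of 8 sublibraries holds cells of all conditions, so groups were taken from the loaded sample named for each cell in the deposited cell table. The numbers of these samples were used as replicates. The members and gene lists were chosen with earlier results of these data known.

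Of 24609 barcodes, 15916 with at least 500 transcripts were kept, 14840 of them in the 6 groups. No doublet caller was run. Of the barcodes, 1602 repeated a barcode combination already listed in another sublibrary, and each was taken as a separate cell. Counts were summed per sample and scaled by library size to CPM. Differences were tested with edgeR 4.0.16 (quasi-likelihood, filter on low counts by its default, Benjamini-Hochberg adjustment over all genes, called at an adjusted p under 0.05) in 3 fits, of 16 cecal samples, 8 colon samples and 16 samples of both tissues; errors of fold changes are SE and 95% intervals are normal. Counts were thinned per cell to 2000 transcripts for shares of cells; cells with tuft or enteroendocrine markers had at least 5 of these from that list, a limit chosen after seeing the data. Same-numbered samples deviated together in Cecum Abx_14D and Ctrl (r = 0.345 to 0.420) and in Colon and Cecum Abx_14D (r = 0.212 to 0.400), and in no other pair of groups were all 4 correlations over 0.1. In Colon and Cecum GF they ran from 0.086 to 0.471. No source used here says whether the numbers pair the samples, and the limit of 0.1 does not decide it. Genes given in full were 19 members fixed by name and, per comparison, the 5 called members with the largest change. Alternatives were TMM scaling, DESeq2 1.42.0, limma-voom (limma 3.58.1), no filter on low counts, the sample number as a block, other minima per cell, Cd44-positive or Top2a-positive cells, and leaving out samples or sublibraries. The fits were tested on simulated data. Intervals and limits for a count of 0 cover counting error only.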

Additional observations from a re-analysis of the deposited data

Results flagged for a closer look

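Among 144 sets of 4 samples (22 genes and the sums of both lists in 6 groups), 7 held a sample that stood far from the other 3, by a gap larger than Dixon's 95% critical share of the range. Chance gives about 1 in 20. Replication genes gave 2 of them: Ccne2, cyclin E2, had 63.7 CPM in Cecum Ctrl 1, against 15.9 to 22.2 CPM in the other Ctrl samples, and Tyms had 31.0 CPM in Cecum Abx_14D 4, against 37.8 to 39.2 CPM in the others. Mitosis genes gave 5. Ube2c had 47.3 CPM in Cecum Abx_4D 4, against 21.96 to 25.9 CPM in the others, and 14.8 CPM in Colon Abx_14D 3, against 8.53 to 9.50 CPM in the others. Cdk1 had 10.9 CPM in Colon GF 2, against 15.1 to 15.2 CPM in the others. Plk1 had 15.9 CPM in Cecum Abx_4D 2, against 21.3 to 21.98 CPM in the others, and that sample is one of the 4 with over 0.5% mitochondrial transcripts. Hmgb2 had 354 CPM in Cecum Abx_14D 4, another of them, against 252 to 261 CPM in the others. Both Ube2c values and the Hmgb2 value lie at the high end of their group. No cause was tested.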

How the results depend on the processing

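In colon against cecum of Abx_14D mice, between 37 and 44 genes were lower under all settings tried, and 33 of the 39 were called under every one; Pcna, Dtl, Aspm, Anln, Aurka and Knstrn were not. No called gene changed direction under any setting. Of the other counts, these moved by over 1.5 times, and the cause was not tested. In colon against cecum of GF mice (10 genes) the count was 17 with TMM scaling, 21 with DESeq2, 6 in Cd44-positive cells, and 2 to 14 when a sample or sublibrary was left out. In Cecum GF against Ctrl (0 genes) it was 3 with TMM scaling, 6 with DESeq2, 2 with no filter on low counts, 3 in Cd44-positive cells, and 0 to 6 when a sample or sublibrary was left out. DESeq2 called 1 gene in Abx_14D against Ctrl, 2 in GF against Abx_4D, 5 in GF against Abx_14D and 1 in the difference between conditions; edgeR called 0 in each. Leaving out a sample gave 0 to 2 genes in GF against Abx_14D and, with sublibraries, 0 to 1 in the difference between conditions.

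With the sample number as a block the count was 1 in Abx_14D against Ctrl, where same-numbered samples deviated together. The count was 9 in GF against Ctrl, 3 in GF against Abx_4D and 1 in GF against Abx_14D. In these GF comparisons not every correlation of same-numbered samples was over 0.1. Whether the numbers pair the samples is unstated, so the counts with and without the block are both left standing. The block moved no other count over all kept cells by over 1.5 times.

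In Mki67-positive cells, the count in colon against cecum of Abx_14D mice (20 genes) was 11 with at least 2 Mki67 transcripts of 5000, 2 in Top2a-positive cells and 7 to 23 when a sample was left out. In GF mice (5 genes) it was 11 with DESeq2, 9 with at least 2 Mki67 transcripts of 5000, 2 in Top2a-positive cells and 3 to 9 when a sample was left out. Where edgeR called 0, GF against Ctrl gave 1 in Top2a-positive cells, GF against Abx_4D 1 with DESeq2, Colon GF against Abx_14D 1 with DESeq2, and Abx_14D against Ctrl 0 to 1 when a sample was left out.

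The share of cells with enough transcripts of either list (3 of 2000) moved with that limit. With at least 2 it was 38.1% in Colon GF, 37.8% in Colon Abx_14D, 40.2% in Cecum GF, 47.1% in Cecum Abx_14D and 56.1% in Cecum Abx_4D. With at least 5 it was 16.4% in Colon GF, 14.8% in Colon Abx_14D, 19.8% in Cecum GF, 27.5% in Cecum Abx_14D, 29.4% in Cecum Abx_4D and 29.1% in Cecum Ctrl. Without thinning, at 1500 CPM, it was 21.9% in Colon GF. The shallowest samples held 1821737 and 2573787 transcripts (Cecum Abx_4D 2 and Cecum Ctrl 1), so the values of low genes there rest on few transcripts.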

Other observations

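The colon samples left out of the comparisons held the genes at these levels. Colon Abx_4D 1, with 857 cells, had 866 CPM of the replication genes together and 890 CPM of the mitosis genes, with 210 CPM of Mki67 and 6.21 CPM of Rrm2, and 20.1% of its cells were Mki67-positive after thinning. Colon Abx_4D 2, with 108 cells, had 466 CPM of the replication genes, 697 CPM of the mitosis genes, 159 CPM of Mki67 and 5.67 CPM of Rrm2, from 5 transcripts. Colon Abx_4D 3 (20 cells), Colon Abx_4D 4 (41 cells) and the 4 Colon Ctrl samples (3 to 38 cells) held no Rrm2 transcript. Their depth was only 2473 (Colon Ctrl 4) to 247511 (Colon Abx_4D 4) transcripts per sample, so this does not show that Rrm2 was absent.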
